A study of Mus musculus with 12 samples.

Results

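The data described here are the liver transcriptomes of the 4 control samples of a knockdown study, labelled shLacZ replicates 1 to 4, taken alone. They are 4 of the 12 RNA-seq libraries of the series and were chosen by their label, so no measured value entered the choice. The other libraries, in which a hairpin RNA targeted G0s2 or Rgs16, were not used. The shLacZ animals were wild-type C57BL/6 mice of 8 weeks that received 0.1 OD of an adenovirus by the tail vein. The virus carried a hairpin against lacZ, a bacterial gene with no mouse counterpart. The livers were collected 12 days after the injection at zeitgeber time 12, when the lights went off in a cycle of 12 h of light and 12 h of darkness. Food had been withdrawn for the preceding 6 h of daytime and was otherwise freely available. The group is therefore a virus-treated liver after a short daytime fast and not an untreated one, and the labels do not say which liver cells the virus reached. The labels give no sex and no preparation date, and they do not say whether the replicates were separate animals, so the spread between them may be partly technical. Total counts were 26132507, 25859500, 25636504 and 26472233 in replicates 1 to 4. All runs of 4 values below follow that order, and ± gives the SD over the 4 libraries.

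The liver makes most of the proteins of blood plasma, stores glucose as glycogen and releases it between meals, makes and exports fat, turns ammonia into urea and oxidises drugs and hormones. Many of these tasks fall to a liver form of an enzyme whose relatives serve other tissues, such as the liver glycogen synthase in place of that of muscle. Dusk is the start of the active and feeding phase of the mouse. It is known as the time when the Period genes are on the rise in mouse liver and when Arntl, which encodes the clock activator BMAL1, is low.

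Levels of different genes are compared in deposited TPM, which adjusts each count for the length of the transcript. Differences of a gene between replicates are given in CPM, counts relative to library size, after TMM scaling, which adjusts for differences in library composition. Before TMM scaling, 1 CPM corresponded to between 25.6 and 26.5 counts. On that scale a count of 0 allowed a level of up to 0.113 to 0.117 CPM, taken as 3 counts and covering counting error only. The scaling multiplied the library sizes by 0.967 in replicate 4 to 1.06 in replicate 3.

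The libraries carried the markers of liver tissue. Albumin (Alb) measured 18321, 19452, 15806 and 17947 TPM, and Apoa1, the main protein of high-density lipoprotein, 5852, 5479, 5690.1 and 4835 TPM. Mup20, a major urinary protein, stood at 32049, 33149, 31362 and 31827 TPM. The protease inhibitor gene Serpina1a measured 4611, 4592, 4135 and 4926 TPM, and Cps1, the entry enzyme of the urea cycle, 656, 686, 595 and 745 TPM. All 15 hepatocyte markers were measured, and their highest and lowest replicates differed by less than 2-fold. Of all genes tested for spread, 5.63% differed by 2-fold or more. That share was only 1.79% between 100 and 1000 CPM and 1.67% from 1000 CPM, so steadiness is common at high levels. Markers of other liver cells were present in each library. The summed level of 13 Kupffer cell and macrophage genes was 723 to 819 TPM, and that of 12 endothelial genes was 200.2 to 227 TPM. Of 12 genes of the exocrine pancreas, 9 were at 0 in every library. The others brought the sum of the list to 24.45 to 43.2 TPM. Of these, 1 had a mean of at least 1 CPM and a count in every library. The Y-linked genes Ddx3y and Eif2s3y reached 17.6, 21.3, 19.99 and 21.1 TPM and 30.7, 29.6, 41.6 and 40.5 TPM, while Xist, the RNA of the inactive X chromosome, was between 0.01 and 0.07 TPM. As bulk tissue, these samples do not tell fewer cells of a type from less RNA per cell.

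A few genes held most of the transcriptome. Of 55536 genes in the tables, 12482 reached a mean of 1 TPM, 11225 of them protein-coding, and 30948 had no count in any library. The 10 most abundant protein-coding genes held 24.7% ± 0.758 of all TPM, and the 100 most abundant held 52.4% ± 1.22. In order of mean level, 49 genes accounted for 50% of the TPM and 2292 for 90%. By level, 111 genes exceeded 1000 TPM and 966 exceeded 100 TPM. The count of genes at 1 TPM ranged from 12322 in replicate 2 to 12653 in replicate 3.

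**Figure D1:**
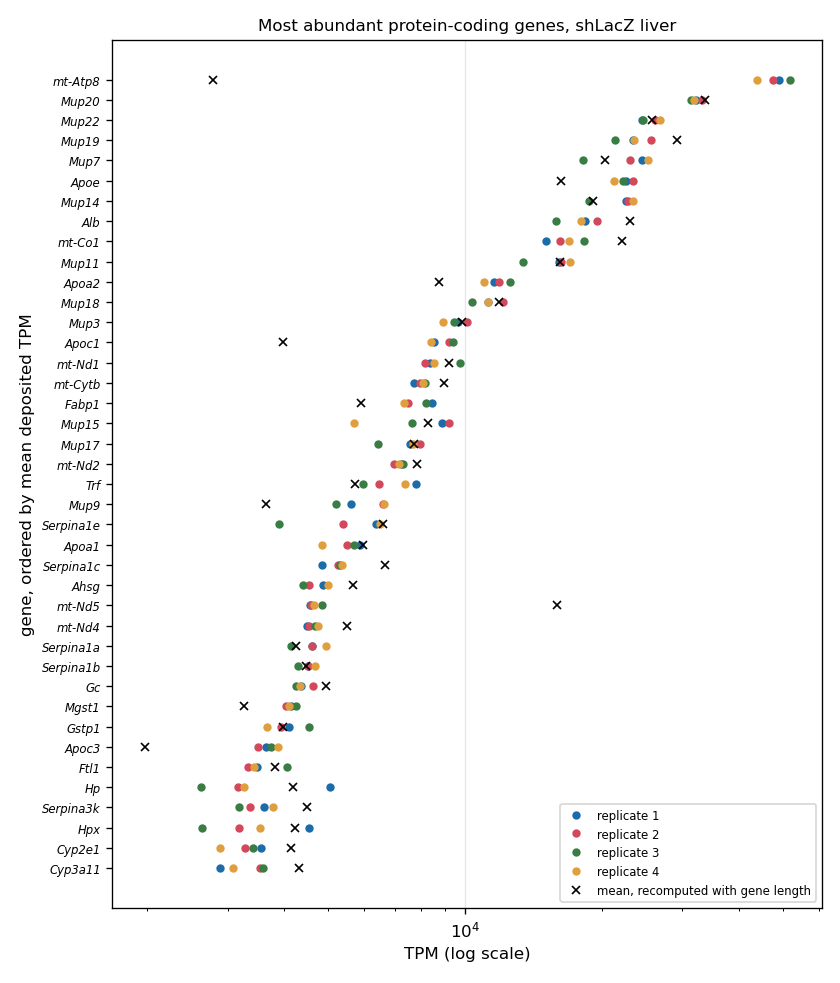
Deposited TPM (log scale) of the 40 most abundant protein-coding genes, with a point for each shLacZ replicate and a cross for the mean recomputed from counts and gene length. Major urinary protein, apolipoprotein and mitochondrially encoded genes fill most of the upper places, and the cross of mt-Atp8 lies far below its points.

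Major urinary proteins, pheromone carriers that mouse liver secretes for excretion in urine, took the largest share of any family examined. Their 22 genes summed to 19.5% ± 1.21 of TPM and 10.5% ± 0.642 of counts. Replicate 3 had the lowest share, 17.7% of TPM, and replicate 2 the highest, 20.4%. Mup20, also called darcin, led with 32097 ± 758 TPM, followed by Mup22 with 25460.5 ± 1129 and Mup19 with 23433 ± 1764. Mup3 stood at 9514 ± 471 TPM, Mup21 at 805 ± 189, and Mup4 and Mup5 were at 0.855 and 1.63 TPM. The genes lie together on chromosome 4, and 14 of the 22 had another member at 99% identity or more in their transcripts, so that reads could be divided between them. Mup20 was the most distinct, with 90.6% identity to Mup4, its nearest relative. The order of Mup20 above the rest was the same in all 4 libraries, whereas the levels of the near-identical members are uncertain.

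Plasma carriers followed. Apoe, a ligand for lipoprotein uptake, stood at 22311 ± 868 TPM, and Apoa2, of high-density lipoprotein, at 11726 ± 646 TPM. Apoc1, an inhibitor of lipoprotein clearance, measured 8890.4 ± 493 TPM. The 18 genes whose symbols start with Apo and a letter held 5.84% ± 0.171 of TPM. Within the A and C groups the order Apoa2, Apoc1, Apoa1, Apoc3 had shares of 36.2%, 27.5%, 16.9% and 11.4%, and the log2 ratio of Apoa2 to Apoc1 had an SD of 0.03. Transferrin (Trf), the iron carrier, measured 6893 ± 826 TPM, and Gc, the vitamin D carrier, 4381 ± 163 TPM. The fatty acid carrier of the hepatocyte cytosol, Fabp1, measured 7866 ± 546 TPM.

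The most abundant cytochromes P450 were Cyp2e1, an ethanol-inducible oxidase of the pericentral zone, with 3549, 3276, 3417 and 2889 TPM, and Cyp3a11, a major drug-metabolising form, with 2893, 3535, 3586 and 3089.7 TPM. The replicates of the 2 genes overlapped. Cyp3a11 was the higher in replicates 2, 3 and 4 and Cyp2e1 in replicate 1, and in TPM recomputed from gene length the mean was 4303 for Cyp3a11 and 4133 for Cyp2e1. The male-biased Cyp2d9 followed at 1541 ± 51 TPM and Cyp2f2, a periportal form, at 911 ± 59.2 TPM. The 100 protein-coding P450 genes together held 1.70% ± 0.0770 of TPM. Cyp2c70, which hydroxylates bile acids in mice, had the largest ratio of highest to lowest CPM of the 15 most abundant, at 2.08. It measured 328, 565, 586 and 683 TPM, lowest in replicate 1. In TPM another of the 15 spread slightly more.

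The highest TPM of all belonged to mt-Atp8, a small subunit of mitochondrial ATP synthase, at 49022, 47419.5, 51634 and 43663. This value came from a mean of 8867 counts on a gene of 204 bases that overlaps mt-Atp6. Recomputed from the counts and the deposited gene length, mt-Atp8 stood at 2789 TPM. On that scale Mup20, Mup19, Mup22 and Alb took the leading places. Among 5898 genes of at least 10 TPM, 155 were 3 or more times higher as deposited than by length, and 85 were 3 or more times lower.

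Several genes of the mitochondrial genome shared their reads with a nuclear copy. A block on chromosome 1, at chr1:24611535-24616197 on the minus strand (GRCm38, GENCODE M21), holds copies of 7 mitochondrial genes, of which 5 matched their source over the copy's whole length without a mismatch. For mt-Atp6, a proton-channel subunit of ATP synthase, the deposited count was 0 in every library, and its copy Gm10925 carried all the pair's counts. For mt-Co2, a copper-binding subunit of cytochrome oxidase, the copy Gm28661 took 97.9% to 98.9% of the pair's counts. The copy Gm28437 took 95.8% to 97.3% of the counts of the mt-Co3 pair. In contrast, mt-Co1 kept all but 3.52% to 4.01% of its pair. The opening bases of the mt-Co2 pair, which are the same in both transcripts, and of the mt-Nd3 pair, which differ at a single position, show how little separates the copies. Capitals mark the only difference, T3C, counted from 1 at the start of each transcript with the base of mt-Nd3 given before that of its copy Gm28438.
mt-Co2: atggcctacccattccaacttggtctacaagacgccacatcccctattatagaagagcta
Gm28661: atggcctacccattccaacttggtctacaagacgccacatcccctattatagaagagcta
mt-Nd3: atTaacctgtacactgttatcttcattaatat
Gm28438: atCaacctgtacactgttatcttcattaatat
At the mt-Nd3 pair the copy took 72.7% to 81.7% of the counts. The 13 mitochondrial protein genes as listed held 10.5% ± 0.507 of TPM, a value that leaves these copies out. With the counts of a copy added to those of its source, mt-Co1 stood at 356934 counts per kilobase, mt-Co2 at 260399, mt-Co3 at 191629 and mt-Atp6 at 118876. On this scale mt-Nd5, a complex I subunit with no copy in the block, stood at 247524, and mt-Atp8 at 43467.

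Isoenzyme and family ratios were examined in 74 families. The same member was highest in all 4 libraries in 66 of them, and in 20 the leader held at least 95% of the family's TPM in every library. The leader held at least 50% in every library in 56. The log2 ratio of the leading to the next member had a single sign in all 4 libraries in 67 families. With 4 libraries an exact two-sided sign-flip permutation test cannot give a p below 0.125, or 0.138 after Benjamini-Hochberg adjustment over the 74 families, so no ratio can be called by the test and the sizes are given instead.

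**Figure D2:**
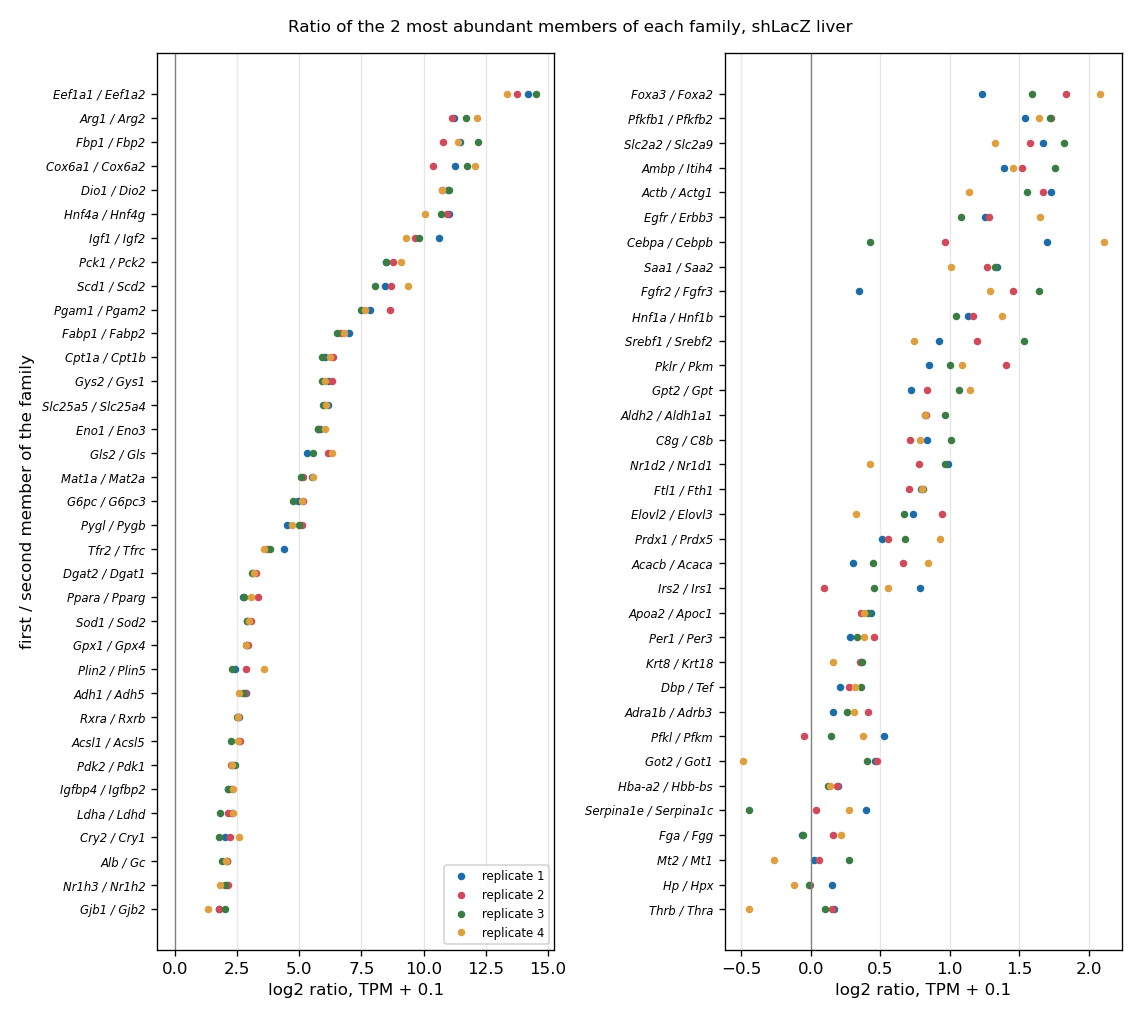
Log2 ratio of the most abundant member of each of 69 families to the next (deposited TPM plus 0.1), with a point per shLacZ replicate and the families in 2 panels by ratio. Eef1a1, Arg1 and Fbp1 exceed the next member by the largest ratios, while Got2 to Got1, Hp to Hpx and Thrb to Thra have points on both sides of 0.

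The glycolytic families differed in how far a single member led. Phosphofructokinase was shared, Pfkl with 13.4, 10.6, 11.02 and 13.5 TPM and Pfkm with 9.29, 11.01, 9.93 and 10.4 TPM, and the order of the 2 genes changed between libraries. Liver pyruvate kinase Pklr, the last step of glycolysis, measured 34.8, 48.6, 43.7 and 41.6 TPM against 19.2, 18.3, 21.8 and 19.6 TPM for Pkm, the form of most other tissues. All Pklr values lay above all Pkm values.

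Gluconeogenesis and glycogen were held by the liver forms. Cytosolic Pck1, which controls entry into gluconeogenesis, held 99.8% ± 0.0456 and its mitochondrial relative Pck2 the rest. Glucose-6-phosphatase G6pc, which frees glucose for export, held 96.96% ± 0.413. Liver glycogen phosphorylase Pygl and liver glycogen synthase Gys2 held 95.98% ± 0.538 and 98.6% ± 0.174 of their families. Pdk2, a kinase that restrains pyruvate dehydrogenase, held 79.5% ± 1.19, and the glucose carrier Slc2a2 (GLUT2) held 60.9% ± 2.59 of 10 transporters.

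In lipid metabolism, Scd1, which introduces a double bond into saturated fatty acids, stood at 983, 933, 810.2 and 1349 TPM and held 99.7% ± 0.09304 of its family. Replicate 4 was highest and replicate 3 lowest. Cpt1a, the gate for fatty acids entering mitochondria, held 98.3% ± 0.2903. The carboxylases were closer: Acacb, tied to the control of fat oxidation, measured 14.6, 20.96, 19.7 and 20.3 TPM, and Acaca, tied to fat synthesis, 11.8, 13.2, 14.5 and 11.3 TPM. Acacb was above Acaca within each library. Elongases were divided, with 38.6% for Elovl2, 24.2% for Elovl3 and 23.5% for Elovl5. Lipid droplet coats were led by Plin2 with 81.1% ± 5.32, and triglyceride synthesis by Dgat2 with 89.96% ± 0.5096.

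Nitrogen and detoxification enzymes also had clear leaders. Mat1a, the adult liver form that makes S-adenosylmethionine, held 97.5% ± 0.403, and Gls2, the liver glutaminase, 98.3% ± 0.5596. Aspartate aminotransferases, which link amino acid and carbohydrate metabolism, changed order: cytosolic Got1 measured 169, 164, 188 and 321 TPM and mitochondrial Got2 232, 228, 248 and 228 TPM. Got1 exceeded Got2 in replicate 4 alone. Gpt2, the mitochondrial alanine aminotransferase, held 65.7% ± 3.06 against cytosolic Gpt. Adh1, the main alcohol dehydrogenase, held 80.1% ± 1.28, and Aldh2, which removes acetaldehyde, 55.7% ± 1.56. Sod1 and Gpx1, the cytosolic superoxide dismutase and main glutathione peroxidase, held 88.04% ± 0.557 and 87.8% ± 0.366, while 6 peroxiredoxins shared their total more evenly, with Prdx1 at 38.7% ± 2.19.

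Ratios between functionally related genes, not all of them parts of a shared complex, were steadier than the levels themselves in some cases. The 3 fibrinogen chains, which form the clot, summed to between 3411 and 5503 TPM, yet the ratio of Fgg to Fgb was 1.70 ± 0.0257. The ratio of Fga to Fgb was more variable, at 1.79 ± 0.188. Ferritin light to heavy chain, Ftl1 to Fth1, was 1.72 ± 0.0544, and beta globins Hbb-bs to Hbb-bt 6.14 ± 0.1203. Haptoglobin (Hp) and hemopexin (Hpx), which clear free haemoglobin and haem, had a ratio of 1.01 ± 0.0796 while Hp itself ran from 2625 to 5049 TPM. Metallothioneins Mt1 and Mt2, which bind zinc and copper, measured 1269, 953, 728 and 1114 TPM and 1292, 994, 882 and 926 TPM and did not keep an order.

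Other secreted proteins had leaders of varying weight. The 5 alpha-1-antitrypsin genes, inhibitors of neutrophil elastase, held 2.17% ± 0.174 of TPM, and Serpina1e and Serpina1c had shares of 25.4% ± 3.83 and 24.1% ± 2.45. Serpina1e measured 6351, 5394, 3896 and 6494 TPM, lowest in replicate 3. Igf1, the growth hormone-dependent growth factor, held 99.91% ± 0.04197 against Igf2. Igfbp4 held 70.5% ± 1.54 of the IGF-binding proteins, and Ambp, the precursor of bikunin, 56.6% ± 2.23 of the inter-alpha-inhibitor chains. In 25 of the 74 families the log2 ratio of the leading members had a smaller SD than the log2 of the family's total.

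Among regulators, Hnf4a, a nuclear receptor of hepatocyte identity, measured 237 ± 11.8 TPM and held 99.98% ± 0.0195 against Hnf4g. Foxa3 led the FOXA factors with 67.1% ± 4.67, at 36.1, 31.4, 34.5 and 36.2 TPM, and Foxa2 stood at 15.3, 8.74, 11.3 and 8.48 TPM. Cebpa, a differentiation factor, measured 137, 97.8, 112 and 111 TPM, and Cebpb, which responds to inflammation, 41.9, 49.98, 83 and 25.6 TPM. The highest Cebpb value was 2.95 times the lowest on the CPM scale, with replicate 4 lowest and replicate 3 highest. Nuclear receptors with a leader were Ppara (84.4% ± 2.35), Rxra (84.2% ± 0.365) and Nr1h3, the liver X receptor alpha (80.1% ± 1.81). The thyroid hormone receptor Thrb measured 7.8, 8.7, 8.76 and 5.65 TPM and Thra 6.95, 7.82, 8.17 and 7.73 TPM. Their order differed between libraries. Among growth factor receptors Egfr held 70.6% ± 3.54 of ERBB transcripts. Fgfr2 measured 17.2, 32.5, 39.4 and 19.9 TPM, but in CPM its values were 34.3, 38.8, 28.1 and 37.5, and the spread in TPM was wider than in counts.

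The clock genes differed in their spread between libraries. Over the 14 core clock genes tested for spread, the median ratio of the highest to the lowest CPM was 1.43, and over 15 clock output genes it was 1.46, beside 1.23 over all genes tested. The repressor Per1 measured 13.96, 16.4, 14.7 and 14.7 TPM, Per3 11.4, 11.9, 11.7 and 11.2 TPM and Per2 7.09, 7.43, 9.14 and 8.14 TPM. These ranked in the same order in every library in TPM, whereas in estimated counts, which are not corrected for length, the mean log2 ratio of Per1 to Per3 was -0.054. Dbp, an output factor driven directly by the clock, stood at 73.4, 75.5, 80.3 and 70.4 TPM and Tef, a relative, at 63.4, 62.4, 62.5 and 56.3 TPM. In estimated counts Dbp was below Tef, with a mean log2 ratio of -1.18. The nuclear receptor repressor Nr1d2 (REV-ERB beta) was nearly constant, at 40.1, 41.9, 40.4 and 40.9 TPM, above Nr1d1 at 20.2, 24.4, 20.6 and 30.4 TPM. Arntl was low, at 1.15, 0.69, 1.21 and 0.64 TPM, and its partner Clock stood at 4.88, 4.48, 4.99 and 4.94 TPM. Npas2, a relative of Clock, reached at most 0.08 TPM. Cry2 held 81.5% ± 3.68 of cryptochrome TPM. On the CPM scale the ratio of the highest to the lowest library was 2.09 for Cry1, 1.82 for the repressor Ciart, 1.803 for Arntl, 1.57 for Nr1d1 and 1.54 for Per2, against 1.15 for Dbp and 1.12 for Nr1d2.

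**Figure D3:**
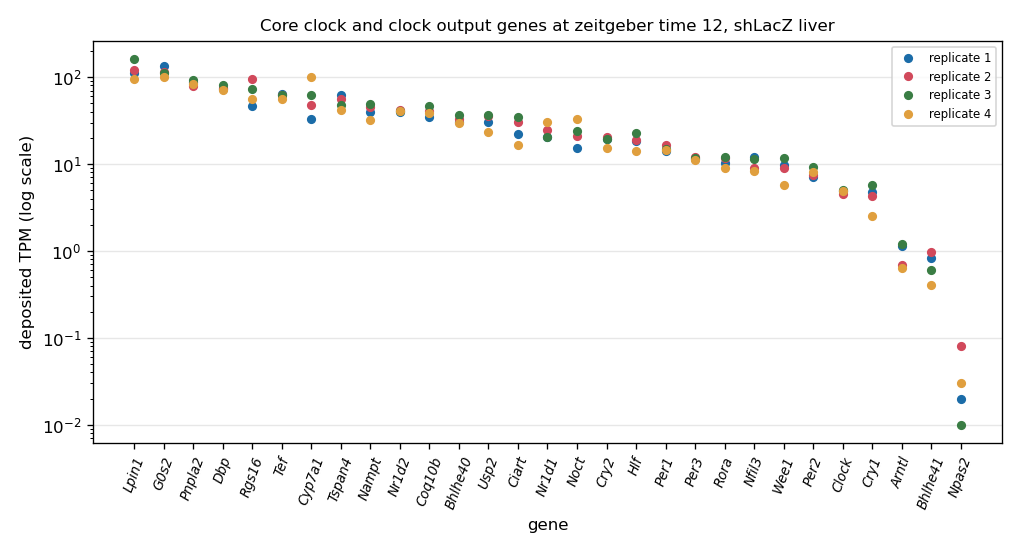
Deposited TPM (log scale) of 14 core clock and 15 clock output genes at zeitgeber time 12, with a point per shLacZ replicate. Dbp, Nr1d2 and Per3 have closely stacked points, while Cyp7a1 and Noct are spread, and Arntl and Npas2 sit at the lower end.

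Spread between replicates was measured for 13045 genes with a mean of at least 1 CPM and a count in every library. The highest replicate was at least 2 times the lowest in 735 genes, or 5.63% of those tested. The median ratio of highest to lowest was 1.23. The median biological coefficient of variation (BCV), the relative SD left after counting noise, was 0.0705. The share that passed the 2-fold mark depended on level. It was 21.5% between 1 and 3 CPM and 4.98% between 3 and 10 CPM. Higher up it was 2.14% between 10 and 30 CPM and 1.79% between 100 and 1000 CPM. The share over all genes is therefore too low a background for lists of low genes and too high for lists of abundant genes. Replicates 1, 3 and 4 were the highest or lowest library in 405, 405 and 452 of the 735 genes, and replicate 2 in 208. The count was 478 without replicate 1, 621 without replicate 2, 468 without replicate 3 and 402 without replicate 4.

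**Figure D4:**
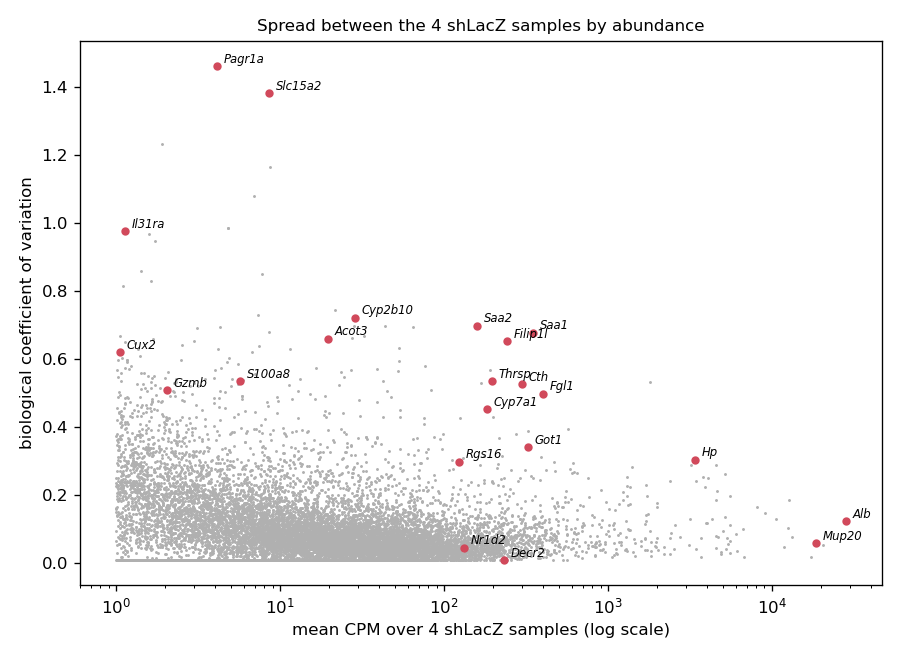
Biological coefficient of variation of each gene tested against its mean CPM (log scale) over the 4 shLacZ libraries, with named genes marked in red. The cloud narrows as the mean rises, Saa1, Saa2 and Filip1l stand above it at more than 100 CPM, and the line of points at the bottom is the lowest value the estimate gives.

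The largest spreads included genes set apart by a single library. Slc15a2, a peptide transporter, measured 0.0776, 9.46, 12.9 and 11.99 CPM. Its level in replicate 1 rested on 2 counts, and the highest of the other replicates was 1.36 times the lowest. Pagr1a measured 0.272, 6.004, 0.2199 and 10.1 CPM, and the gene Gm42742 that overlaps it 12.1, 4.16, 10.9 and 0.469 CPM. The sum of the pair was 11.1 ± 0.984 CPM and ran from 10.2 to 12.4 CPM. Pagr1a was high where Gm42742 was low, and their sum spread less than either gene. Il31ra, a cytokine receptor subunit, had 9.71 to 81.4 counts yet 45.6, 55.1, 88.1 and 405 TPM. Cyp2b10, a P450 induced through the receptor CAR, measured 29.1, 25.3, 53.3 and 7.27 CPM, with replicate 3 highest and replicate 4 lowest. Filip1l measured 148, 149, 147 and 523 CPM. Replicate 4 stood apart there, and the ratio without it was 1.01.

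Among the most variable genes at 100 CPM or more, several were set apart by replicate 3 or 4. Thrsp, a regulator of fat synthesis, measured 147, 211, 338 and 90.3 CPM, highest in replicate 3 and lowest in replicate 4. Cyp7a1, the rate-limiting enzyme of bile acid synthesis, measured 97.7, 149, 184 and 299 CPM. Cth and Cbs, the enzymes that turn homocysteine into cysteine, measured 236, 232, 168 and 561 and 159, 153, 126 and 261 CPM, and both were highest in replicate 4. Without replicate 4 the ratio was 1.88 for Cyp7a1 and 1.41 for Cth. The elongase Elovl5 measured 166, 164, 126 and 337 CPM, also highest in replicate 4, without which its ratio was 1.32. Moxd1, a male-biased gene, measured 216, 169, 61.2 and 221 CPM and was low in replicate 3 alone, and the ratio without that library was 1.31. The chromatin remodeler Chd9 measured 759.8, 414, 749 and 343 CPM, with replicates 1 and 3 above replicates 2 and 4, and its ratio was 1.84 without replicate 4.

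Acute phase genes, which the liver turns on in inflammation, had a median ratio of 1.96 between the highest and the lowest library, beside 1.23 over all genes tested. Of 19 tested, 7 had a ratio of at least 2: Hp, Saa1, Saa2, Hamp, Apcs, Lcn2 and Orm2. That is 36.8%, beside 5.63% of all genes tested. Saa1 and Saa2, which encode serum amyloid A, measured 638, 199.99, 126 and 429 CPM and 268, 88.1, 53.1 and 227 CPM. Both were highest in replicate 1 and lowest in replicate 3, and the ratio of Saa1 to Saa2 in TPM was 2.37 ± 0.239. Saa4, the constitutive member, measured 762, 587, 800.4 and 440.2 CPM, with replicates 1 and 3 high and replicate 4 lowest. Hp measured 4889, 3071, 2347 and 3199 CPM, Lcn2, an iron-scavenging protein, 54.3, 24.4, 28.5 and 28.7 CPM, and Orm2, an orosomucoid, 27.5, 13.7, 10.2 and 22.7 CPM. Without replicate 1 the ratio was 1.37 for Hp and 1.18 for Lcn2, and without replicate 3 that of Hp was 1.59. Fgl1, a fibrinogen-like hepatokine outside the list, measured 578, 371, 166 and 483 CPM, and its ratio was 1.56 without replicate 3. Hamp, which encodes the iron hormone hepcidin, measured 85.9, 24.7, 67.1 and 31.3 CPM and was also high in replicates 1 and 3. The median log2 deviation of the acute phase list from its mean was 0.33 in replicate 1 and -0.36 in replicate 3.

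Saa1 and Saa2 lie head to head on chromosome 7, and their upstream sequences are shown because their replicates fell in the same order. Their estimated counts were not whole numbers, such as 16435.18 and 6917.82 in replicate 1, so reads could be divided between them. The part of such a division in their shared order and in their ratio was not tested. Each run is the 250 bases before the start site (RefSeq, GRCm38.p6), 5′ to 3′ on the gene's strand, at chr7:46742981-46743230 on the minus strand for Saa1 and chr7:46751583-46751832 on the plus strand for Saa2. Capitals mark TTGCNCAA, searched on both strands, a form of the palindrome that C/EBP factors bind.
Saa1: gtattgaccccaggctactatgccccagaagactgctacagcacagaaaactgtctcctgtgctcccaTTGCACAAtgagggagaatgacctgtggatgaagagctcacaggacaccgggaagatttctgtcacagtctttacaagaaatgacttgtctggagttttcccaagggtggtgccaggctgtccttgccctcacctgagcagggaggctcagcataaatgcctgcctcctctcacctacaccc
Saa2: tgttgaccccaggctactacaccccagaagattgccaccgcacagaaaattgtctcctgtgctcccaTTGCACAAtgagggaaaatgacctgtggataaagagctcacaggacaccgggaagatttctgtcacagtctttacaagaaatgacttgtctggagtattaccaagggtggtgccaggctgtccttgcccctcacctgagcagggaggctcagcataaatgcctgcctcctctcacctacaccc
The motif occurred once in each, 182 and 183 bases before the start. It was found in 848 of 32536 upstream windows of this length, or 2.61%. The 2 sequences were identical at 237 of 248 aligned positions, which is 95.6%. A match describes the letters and not a bound site.

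**Figure D5:**
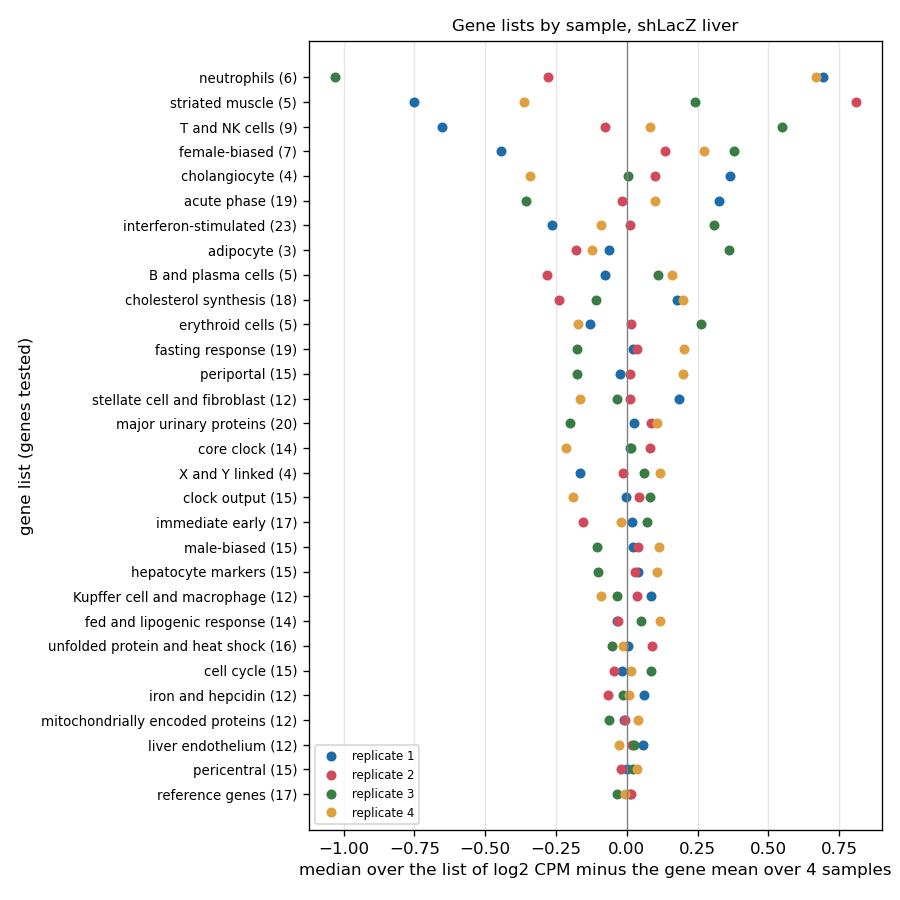
For each gene list (genes tested in brackets), the median over its genes of log2 CPM minus the gene's mean over the 4 libraries, with a point per shLacZ replicate. Neutrophil and acute phase genes lie above 0 in replicate 1 and below 0 in replicate 3, and the reference genes lie near 0 in all.

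Neutrophil and lymphocyte markers were low. All 6 neutrophil genes tested had a ratio of at least 2, with S100a9 at 18.5, 7.93, 6.85 and 18.3 CPM, S100a8 at 8.19, 4.51, 2.31 and 7.93 CPM and Ngp, a granule protein, at 10.6, 4.83, 2.602 and 11.8 CPM. Replicates 1 and 4 were high for these genes, and without replicate 3 the count was 3. Of 9 T and NK cell genes, 6 passed, among them Gzmb, a killer cell protease, at 0.892, 2.51, 3.19 and 1.52 CPM, Nkg7 at 0.931, 1.26, 2.97 and 2.03 CPM and Cd8a at 1.67, 1.96, 5.205 and 2.77 CPM. Replicate 1 was lowest for all 3, and the count of the list was 3 without replicate 3. It was 0 at a minimum of 5 CPM, a filter that leaves these 3 genes out and so does not bear on their spread. These 3 genes averaged between 1 and 3 CPM, where 21.5% of all genes passed. None of 12 Kupffer cell genes and none of 12 endothelial genes passed, beside 5.63% of all genes tested. Of the other cell types, 2 of 4 cholangiocyte genes passed, Spp1 and Epcam, 1 of 12 stellate cell genes, Col1a1, and 1 of 5 B cell genes, Ighm. None of 5 erythroid and none of 3 adipocyte genes passed. The part of these cells in other results was not tested.

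Interferon-stimulated genes were lowest in replicate 1 in 19 of 23 cases and highest in replicate 3 in 19 of 23. Their median log2 deviation was -0.26 in replicate 1 and 0.31 in replicate 3, and their summed level ran from 831 to 1259 TPM. Of the 23, 3 passed the 2-fold mark, or 13.0%, beside 5.63% of all genes tested. These were Igtp at 40.1, 66.6, 88.5 and 81.3 CPM, Cxcl10, a chemokine, at 5.94, 9.26, 13.7 and 8.91 CPM and Gbp2 at 12.2, 17.7, 27.1 and 16.4 CPM. Each was lowest in replicate 1, and none passed without that library and 1 without replicate 3. Bst2, an antiviral membrane protein, was the most abundant of the list at 157, 193, 195 and 160.3 CPM.

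The shares of the feeding and timing lists that passed the 2-fold mark lay near or above the 5.63% of all genes tested. They were 5.26% for fasting, 7.14% for both lipogenic and core clock genes, 11.1% for cholesterol synthesis and 20% for clock output. Of 19 fasting genes only Igfbp1, an IGF carrier, passed, at 87.6, 73.9, 72.7 and 159 CPM, with a ratio of 1.21 without replicate 4. Of 14 lipogenic genes only Thrsp passed, and of 14 core clock genes only Cry1. Of 15 clock output genes 3 passed: Cyp7a1, Noct, a rhythmic phosphatase, at 53.5, 71.03, 75.98 and 120.3 CPM, and Rgs16, a regulator of G protein signalling, at 87.7, 176, 127 and 105 CPM. Only 1 of these passed without replicate 1 and only 1 without replicate 4. G0s2, an inhibitor of triglyceride lipolysis, measured 72.9, 61.7, 55.2 and 55.3 CPM, with a ratio of 1.32 and replicate 1 highest. Cholesterol synthesis had 2 of 18, among them Sqle, a monooxygenase of the pathway, at 34.2, 17.4, 15.7 and 31.3 CPM. Replicates 1 and 4 were higher, and the count of the list was 1 without replicate 1 and 0 without replicate 3. Of 15 pericentral genes only Axin2, a Wnt target, passed, at 6.09, 4.32, 4.801 and 2.03 CPM, with a ratio of 1.41 without replicate 4, and of 15 periportal genes only Sult5a1.

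Sex-biased genes differed in level and in spread. In every library male-biased genes were high in sum and Y-linked genes were present, while female-biased genes were low and Xist reached at most 0.07 TPM. The male-biased list summed to 50620.5 to 54757 TPM and had 1 of 15 genes passing, Moxd1. That is 6.67%, beside 5.63% of all genes tested. Female-biased genes were low, summing to 22.1 to 39.6 TPM, and 6 of 7 tested passed, or 85.7%. Among all genes tested, 21.5% of those between 1 and 3 CPM passed and 4.98% of those between 3 and 10 CPM. Acot3, an acyl-CoA thioesterase, measured 11.99, 24.3, 6.96 and 34.8 CPM, Cyp2a4 4.58, 9.105, 10.6 and 5.31 CPM and the transcription factor Cux2 1.05, 0.824, 0.367 and 1.99 CPM. Without replicate 1 the female-biased count was 3.

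Iron and early response genes varied in part. The share that passed was 33.3% of iron and 29.4% of immediate early genes, beside 5.63% of all genes tested. Of 12 iron genes 4 passed: Hamp, Hamp2 at 3.49, 5.22, 7.22 and 8.91 CPM, and the BMP targets Id1 at 6.596, 3.41, 3.19 and 2.58 CPM and Smad7 at 10.4, 7.02, 12.2 and 3.95 CPM. The iron count was 2 without replicate 1. Of 17 immediate early genes 5 passed, including Egr1 at 16.02, 14.9, 25.7 and 51.3 CPM, with replicate 4 highest, and Myc at 17.3, 5.73, 7.29 and 8.75 CPM, with replicate 1 highest. That count was 3 without replicate 1, 2 or 4. All 5 striated muscle genes tested passed at low levels. The share over all genes was 21.5% between 1 and 3 CPM and 4.98% between 3 and 10 CPM. The list was led by Acta1, skeletal actin, at 1.82, 6.32, 3.67 and 2.19 CPM. Replicate 2 was highest, and 3 of the muscle genes passed without that library. Tnnt3, a troponin of fast muscle, measured 0.931, 2.75, 2.24 and 1.05 CPM, also highest in replicate 2.

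The rRNA genes and a few other RNAs stood apart in replicate 4. The rRNA genes took 0.0835% to 0.241% of TPM, with the highest value in replicate 4. As a share of counts they stood at 0.117%, 0.129%, 0.131% and 0.335%. Nearly all of these counts were those of CT010467.1, so the class and this gene are not separate signals. CT010467.1 measured 1184, 1311, 1228 and 3461 CPM, Lars2, a mitochondrial leucyl-tRNA synthetase, 50.4, 49.3, 51.1 and 154 CPM and Rn7s1, of the signal recognition particle, 1.55, 2.198, 1.98 and 13.4 CPM. The ratio of Lars2 to CT010467.1 was 0.0415 ± 0.00286 and that of Filip1l to CT010467.1 was 0.127 ± 0.0164. Their part in other results was not tested.

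Many abundant genes hardly moved. Of 1356 protein-coding genes with a mean of 100 CPM or more, 879 had a ratio under 1.2 and 381 under 1.1, and 23 had a ratio of 2 or more. Hnrnpul2, an RNA-binding protein, measured 127, 128, 128 and 127 CPM. Decr2, a peroxisomal reductase of unsaturated fatty acids, measured 233, 236, 232 and 233 CPM, and Got2 462, 458, 464 and 467 CPM. None of 17 common reference genes reached 2-fold, beside 5.63% of all genes tested and 1.79% of those between 100 and 1000 CPM. For 2263 genes the BCV was at the lowest value the estimate gives, so these least variable genes cannot be ranked by it.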

How the data were processed

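RNA was sequenced from 4 shLacZ liver samples after Trizol extraction, DNase I treatment and ribosomal RNA depletion, per the labels' protocols. The authors deposited estimated counts and TPM per gene in tables whose column names give both units, per the file headers. Bowtie2 2.2.9, fastp 0.19.5, GATK 3.8, SAMtools 1.9 and DESeq2 are listed, without roles, per the submitters' processing notes. Which tool counted reads, and on which build, is not given in the sources used here. The 8 shLacZ columns are in both deposited tables and 0 differed. All 55536 gene IDs and symbols matched GENCODE M21 (GRCm38). Levels of genes were compared in deposited TPM. Estimated counts were rounded, scaled by TMM in edgeR 4.0.16 (R 4.3.3), and expressed as CPM, and gene-wise BCV was estimated without moderation, which was tested on simulated data. Tables were handled with pandas 2.3.3, and the exact sign-flip permutation test enumerated all sign changes of the 4 log2 ratios of a family. Totals of 25636504 to 26472233 counts per library limit low genes most. Libraries compared in pairs differed by 12.1 to 35.9 times the sampling variance, more than counting error alone gives between repeats of the same library. This does not tell separate animals from separate preparations of the same liver. Members and lists were chosen with earlier results of these data known. Named genes are the 40 most abundant protein-coding and 10 other genes, the leading 2 members of each family and any with 5% of it or at 0, the leading 4 of each list and all with a ratio of 2 or more, the 30 most variable, the 20 most and 10 least variable at 100 CPM, the 5 liver markers and the X and Y genes. The genes mt-Atp6, Arntl, Clock, Lars2, CT010467.1, Gm42742 and some family members fall outside that rule and were chosen after their values were seen. Values of some genes, and the ratios of 5 families, are not reported here, although counts over families and lists include them. Alternatives in scaling, filters, pseudocount, fold and left-out replicates were tried.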

Additional observations from a re-analysis of the deposited data

Results flagged for a closer look

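Values of 117 genes and 6 RNA classes were examined for a replicate that stands far from the other 3, by the gap to its nearest neighbour against the whole range. In random groups of this size chance flags about 1 in 20, but many of these genes were named for their spread, so that rate does not apply to them. Of 118 gene values 10 stood apart, 8 of them in replicate 4, with Got1 counted in both units. In replicate 4, Got1 was high at 321 TPM and 509.6 CPM, Il31ra at 405 TPM, Filip1l at 523 CPM, Lars2 at 154 CPM, CT010467.1 at 3461 CPM and Rn7s1 at 13.4 CPM, while Tef was low at 56.3 TPM. In CPM Tef did not stand apart, at 229, 217, 211 and 209. The rRNA genes stood at 0.241% of TPM and the lincRNA genes at 0.606% of TPM in the same replicate. Nearly all counts of the rRNA class were those of CT010467.1, so these flags are not separate. As a share of counts the lincRNA genes were at 0.344%, 0.369%, 0.396% and 0.381%, with replicate 4 below replicate 3. Lcn2 was high in replicate 1 at 54.3 CPM. Xist was at 0.07 TPM in replicate 3, above the other libraries but near 0 in all, and in CPM it did not stand apart, at 0.194, 0.275, 0.293 and 0.391.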

How the results depend on the processing

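No paired analysis was possible because only the shLacZ group was used. The number of genes at 1 TPM was 5901 at a limit of 10 TPM, and 12399 to 12516 when each replicate was left out. The share of TPM in the 10 most abundant protein-coding genes was 27.2% among protein-coding genes only, 23.0% without mitochondrially encoded genes, 15.4% in estimated counts and 22.1% with the deposited length, an alternative chosen after seeing the data; leaving out a replicate gave 24.5% to 25.1%. The count of genes with a 2-fold ratio was 1213 in deposited TPM, 217 at a mean of 5 CPM, 1357 at 0.5 CPM, 4059 with no filter, 2583 at 1.5-fold, 176 at 3-fold and 402 to 621 with a replicate left out, the lowest without replicate 4. The median BCV was 0.0545 to 0.0724 with a replicate left out. The count of families with a constant leader was 67 to 69 with a replicate left out. Of 483 ratios recomputed over 69 families, 469 kept their direction and 14 in 9 families reversed. In estimated counts, which do not correct for length, the log2 ratio became -0.11 for Serpina1e to Serpina1c, -0.59 for C8g to C8b, -0.19 for Hp to Hpx, -0.18 for Hba-a2 to Hbb-bs, -0.22 for Mt2 to Mt1, -0.057 for Irs2 to Irs1, 1.82 for Thrb to Thra, -0.054 for Per1 to Per3 and -1.18 for Dbp to Tef. With a replicate left out the ratio ran from -0.043 to 0.24 for Serpina1e to Serpina1c (below 0 without replicate 1 or 4), -0.045 to 0.047 for Hp to Hpx (below 0 without replicate 1), -0.060 to 0.12 for Mt2 to Mt1 (below 0 without replicate 3) and -0.065 to 0.14 for Thrb to Thra (above 0 without replicate 4). The causes of these reversals were not tested. Of 224 list counts, 180 stayed within 1.5 times and 44 moved, 37 of them lower. The clock output count was 1 without replicate 1 or 4, the iron count 2 without replicate 1 and the cholesterol count 0 without replicate 3. For genes under 3 CPM, depth limits the ratio most.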

Other observations

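Other RNA classes and stress genes were also measured. Neat1, a nuclear paraspeckle RNA, stood at 103, 129.9, 171 and 149.5 TPM and Malat1, of nuclear speckles, at 106, 118, 122 and 133 TPM. The mitochondrial ribosomal RNAs mt-Rnr1 and mt-Rnr2 averaged 634 and 476 TPM, in libraries from which ribosomal RNA had been depleted. Of 16 unfolded protein and heat shock genes 1 had a ratio of at least 2, or 6.25%, beside 5.63% of all genes tested. It was the inducible chaperone Hspa1a at 4.66, 2.12, 4.65 and 8.83 CPM. Of 15 cell cycle genes none had such a ratio. The receptor Scara5, which takes up ferritin, measured 71.8, 39.99, 52.9 and 10.9 CPM, and the forkhead factor Foxq1 57.8, 15.9, 28.2 and 10.9 CPM. Both were highest in replicate 1 and lowest in replicate 4. Osgin1, an oxidative stress response gene, measured 205, 96.2, 122 and 75.1 CPM with the same extremes.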
